A study of Mus musculus with 16 samples.

Results

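The cytosolic ribosomal protein genes were chosen by symbol: every row starting with Rpl or Rps and a digit, together with Rplp0, Rplp1, Rplp2 and Rpsa. Of the 24411 genes in the table, 104 symbols carried these letters, and 10 Rps6k kinases and 6 symbols with a -ps ending (pseudogenes) were left out, which left 88 genes. By role they were 43 proteins of the 60S subunit, 3 proteins of the P-stalk, 31 proteins of the 40S subunit, 10 paralogs or retrocopies and Rps19bp1, which shares the letters but is a binding partner of Rps19 and not part of the ribosome. The gene models of GENCODE vM21 (GRCm38, the build named mm10 by the submitters) call 86 of them protein coding and call Rps4l and Rpl37rt transcribed processed pseudogenes.

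RNA was sequenced from spinal cords of female C57BL/6J mice. In SCI + Vehicle and SCI + Atorvastatin (n = 7 each) the thoracic cord had been compressed at 12 weeks of age from the sides to a gap of 0.25 mm, and daily vehicle (DMSO, PEG, Tween and saline) or atorvastatin at 10 mg/kg, a statin that inhibits cholesterol synthesis, began 2 weeks after the injury and went on for 4 weeks. The cords were taken at 6 weeks as a 5 mm piece, so each library mixed all cell types of that piece. The Uninjured Control group (n = 2) had no injury and no treatment and was taken at 14 weeks of age, against 18 weeks in the SCI mice, and there was no uninjured atorvastatin group, so a difference from the controls carries the injury, the surgery, the daily dosing and the difference in age together, which cannot be told apart. All 16 libraries were separate mice, and the total was 14823292 to 25579826 counts per mouse, the lowest in SCI + Vehicle replicate 4.

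Each cytosolic ribosome carries a single copy of nearly every one of these proteins on a scaffold of ribosomal RNA: the small subunit reads the mRNA, the large subunit joins amino acids, and the P-stalk on the large subunit calls in the elongation factors. The mRNAs of ribosomal proteins are short and abundant and begin with a 5′ terminal oligopyrimidine (TOP) tract, a C followed by a run of C and T, through which mTORC1 and Larp1 set how much of them is translated. Total RNA sequencing reads how much mRNA is present and not how much of it is translated.

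The TOP tract was visible in the genome sequence at the annotated starts. Of 67 genes with a RefSeq promoter entry (GRCm38.p6), 14 (20.9%) had a C at the annotated start followed by 4 bases that were each C or T on the coding strand, against 813 of 27025 genes (3.0%) in the whole table. A run of at least 10 such bases within 50 bases of the start was present in 44 (65.7%) of them and in 5562 (20.6%) of all genes. Annotated starts can miss the true one by some bases, so a window without the motif says only that it was not at that position. The windows of 4 members described later are given on their coding strand, 10 bases before and 20 bases from the annotated start on, with the run of C and T from the start in capitals. Rpl35a and Rpl38 are shown because they were lower after SCI, and Rplp2 and Rps18 because their levels relative to the other ribosomal protein genes of the same mouse were above the controls, although neither was called on counts.
Rpl35a, chr16:33056472-33056501, plus strand: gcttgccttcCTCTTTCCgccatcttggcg
Rpl38, chr11:114668570-114668599, plus strand: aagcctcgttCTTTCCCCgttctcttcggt
Rplp2, chr7:141447641-141447670, plus strand: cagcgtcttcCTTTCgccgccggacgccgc
Rps18, chr17:33955646-33955675, minus strand: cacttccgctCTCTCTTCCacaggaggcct
The 4 windows were taken from the 14 genes that carry the pattern, so that they share it by choice and say nothing of how it relates to the direction of a gene.

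Ribosomal protein mRNAs were among the most abundant in the cord. On the TPM scale (transcript abundance corrected for length and library total, so that genes can be compared) the mean over the 14 SCI mice had a median of 651 over the 88 genes, and 77 were above 100 TPM and 20 above 1000 TPM. They made up 20 of the 100 genes with the highest mean TPM. The highest was Rps23, a protein of the decoding centre, at 3356 TPM, and the stalk proteins Rplp1 at 2862 TPM and Rplp2 at 2776 TPM came next. Rpl23a, at the exit of the tunnel, had 1979 TPM. The lowest were Rpl10l, listed at 0 in every mouse, and Rpl39l, at 1.59 TPM in SCI + Vehicle replicate 7 and listed at 0 in the other 15 mice, both of which are paralogs best known from the testis.

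As a share of all TPM, the 88 genes held 6.63% ± 0.37 (SD, n = 7) in SCI + Vehicle, 6.71% ± 0.51 (SD, n = 7) in SCI + Atorvastatin, and 7.53% and 6.34% in control replicates 1 and 2. The 60S and P-stalk genes together held 1.65 ± 0.04 times the TPM of the 40S genes in SCI + Vehicle, 1.63 ± 0.02 times in SCI + Atorvastatin (SD, n = 7 each), and 1.72 and 1.65 times in control replicates 1 and 2. The ranges of both SCI groups overlapped for both values. The genes also moved together from mouse to mouse. Over the 14 SCI mice, after each group's mean was taken away, 2628 pairs among 73 core genes with at least 10 counts in every mouse had a median correlation of 0.71, and 99.8% of the pairs were positive. The median was 0.70 between 60S and 40S genes, 0.25 with the mitochondrial ribosomal proteins and -0.02 with all other genes of at least the same level. These are descriptions over 14 libraries that share their scaling, and no p-value was taken from them. Rps3a1, Rpsa and Rpl5 followed the other core genes most closely (median correlation 0.83, 0.82 and 0.81), and Rpl37a and Rps13 least closely (0.43 and 0.44); these 5 were picked after their values were seen.

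The 2 control libraries stood apart from each other. Control replicate 1 was above control replicate 2 in 64 of 73 core ribosomal protein genes, by a median of 0.45 (log2), against a median of 0.02 over 10826 genes of any kind. Relative to the mean of the SCI mice, the median core gene was at 0.47 (log2) in control replicate 1 and at -0.01 in control replicate 2, and the SCI mice ranged from -0.25 to 0.23. Control replicate 2 therefore lay inside the range of the SCI mice and control replicate 1 above it. Both controls also held liver transcripts: the 12 liver markers (Alb, Ttr and others) summed to 4717 CPM (counts scaled to the library size) in control replicate 1, to 815 CPM in control replicate 2 and to 0.79 to 8.20 CPM in the SCI mice. A gene had at least 1 count for 12356 to 12732 genes in the controls and for 16399 to 19338 genes in the SCI mice. The part of these differences in any result against the controls was not tested.

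**Figure D1:**
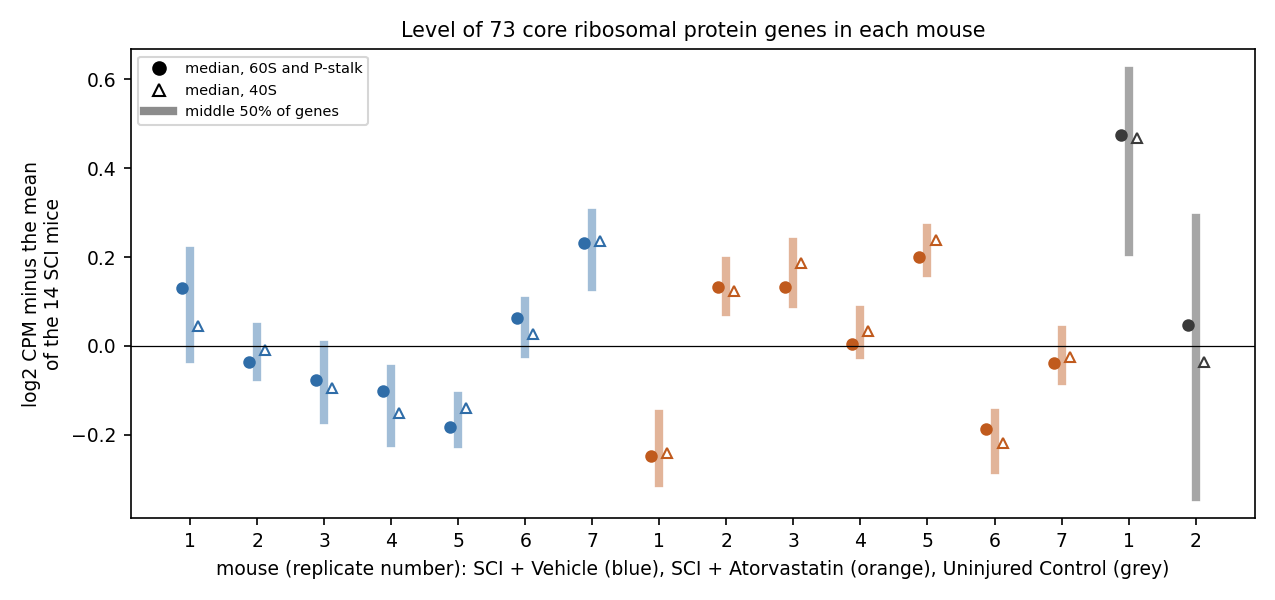
Level of the 73 core ribosomal protein genes in each mouse. The x axis gives the mice by group and replicate number, the y axis gives log2 CPM minus the gene's mean over the 14 SCI mice, bars span the middle 50% of genes, and circles and triangles give the medians of the 60S with P-stalk genes and of the 40S genes. The ranges of the 2 SCI groups overlap, control replicate 1 sits above all of them and control replicate 2 among them.

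SCI + Vehicle vs. Uninjured Control asks which genes differ in the chronically injured cord. A gene was called when the adjusted p of edgeR's quasi-likelihood test on the counts was below 0.05 and the absolute log2 fold change was above 0.32, over 16091 genes with a mean above 1 TPM in at least 1 condition. Of the 84 ribosomal protein genes tested, 18 were called lower and 2 were called higher. Over all genes tested 9.55% were called lower and 19.8% higher. The median log2 fold change was -0.23 over the ribosomal protein genes and 0.17 over all genes. In SCI + Atorvastatin vs. Uninjured Control, which uses the same 2 controls, 20 were called lower and 1 higher, against 14% and 24.9% of all genes, with medians of -0.18 and 0.21. In this bulk tissue, fewer cells of a type and less RNA per cell cannot be told apart.

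These counts rested on which control was used. Without control replicate 1, 5 genes were called lower and 9 higher in SCI + Vehicle (all genes 14.1% and 33.6%), and 8 lower and 15 higher in SCI + Atorvastatin (all genes 19.7% and 40.6%). Without control replicate 2, 39 were called lower and 4 higher in SCI + Vehicle (all genes 15.9% and 32.6%), and 40 lower and 3 higher in SCI + Atorvastatin (all genes 21.4% and 39.7%). In these fits the lone control is assumed to vary like the SCI mice. The genes called lower against either control alone included Rpl35a, Rpl37 and Rps4l in SCI + Vehicle, and these with Rpl38, Rpl41 and Rps24 in SCI + Atorvastatin. Rpl3l was called higher against either control alone in SCI + Vehicle.

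On the TPM scale, the members lay at a median log2 difference of -0.04 in SCI + Vehicle and -0.004 in SCI + Atorvastatin, and all genes at 0.49 and 0.52 (log2 of TPM + 1). The limma test on these values called 9 lower and 11 higher in SCI + Vehicle, against 4.28% and 23.4% of all genes, and 10 lower and 11 higher in SCI + Atorvastatin, against 7.69% and 31.6%. The genes called lower on both scales numbered 9 in SCI + Vehicle and 10 in SCI + Atorvastatin. Rpl24, Rpl35a, Rpl37, Rpl39, Rpl8 and Rps4l were among them in each. The share of all genes called lower on both scales was not computed. It can be at most the 4.28% and 7.69% that limma called lower. On both scales the median of the members lay below that of all genes.

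**Figure D2:**
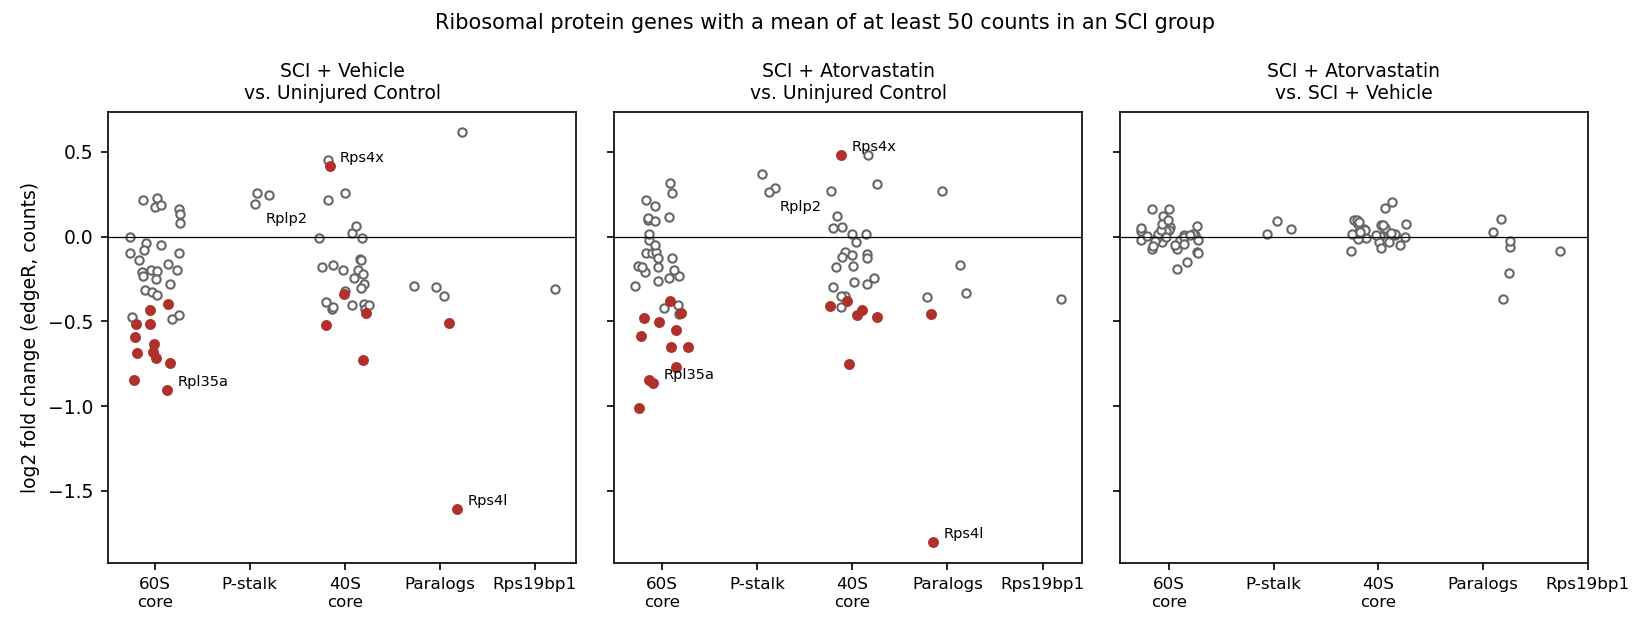
Log2 fold changes (y axis, edgeR on counts) of the ribosomal protein genes with a mean of at least 50 counts in an SCI group, by role (x axis) in the 3 comparisons; filled red points were called and open points were not. In both comparisons with the controls most called points lie below 0 among 60S and 40S genes, Rps4l lies lowest and Rps4x is called above 0, and in SCI + Atorvastatin vs. SCI + Vehicle no point is called.

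Among the 60S genes, 12 of the 42 tested (28.6%) were called lower in each comparison. Of all genes, 9.55% were called lower in SCI + Vehicle and 14% in SCI + Atorvastatin. With both controls, 0 of the 60S genes were called higher in either comparison, against 19.8% and 24.9% of all genes. The higher and the lower calls both depended on the controls used. Rpl10a, Rpl12 and Rpl17 were called higher in SCI + Vehicle without control replicate 1, and these with Rpl36a, Rpl4 and Rpl5 in SCI + Atorvastatin. Rpl32 was called higher in both comparisons without control replicate 2. Without control replicate 1, the 60S genes called lower were Rpl15, Rpl35a and Rpl37 in SCI + Vehicle and these with Rpl38 and Rpl41 in SCI + Atorvastatin, and the calls of the other 60S genes were lost. Rpl24, Rpl31, Rpl35a, Rpl37, Rpl38, Rpl39, Rpl41 and Rpl8 stayed below 0 under every alternative run. Rpl35a, one of the proteins mutated in Diamond-Blackfan anaemia, was at 144 and 99.4 CPM in the controls. It ran from 54.7 to 78.6 CPM (median 63.6) in SCI + Vehicle and from 55.2 to 80.5 CPM (median 65.4) in SCI + Atorvastatin. No SCI mouse reached either control, and edgeR gave log2 fold changes of -0.90 ± 0.17 (SE, adjusted p = 0.0029) and -0.86 ± 0.17 (SE, adjusted p = 0.0026). Rpl37, a small zinc-binding protein of the large subunit, had 244 and 191 CPM in the controls. It ran from 119 to 176 CPM in SCI + Vehicle and from 109 to 171 CPM in SCI + Atorvastatin, again below both controls, with edgeR log2 fold changes of -0.68 ± 0.15 (SE, adjusted p = 0.0077) and -0.65 ± 0.17 (SE, adjusted p = 0.011).

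Rpl8, which lies close to the peptidyl transferase centre, had 661 and 441 CPM in the controls, from 307 to 383 CPM in SCI + Vehicle and from 299 to 399 CPM in SCI + Atorvastatin. Its edgeR log2 fold changes were -0.68 ± 0.14 (SE, adjusted p = 0.0045) and -0.65 ± 0.15 (SE, adjusted p = 0.0055). Rpl24, which reaches across to the small subunit, had 165 and 127 CPM in the controls, from 89.4 to 113 CPM in SCI + Vehicle and from 74.3 to 114 CPM in SCI + Atorvastatin, with log2 fold changes of -0.59 and -0.59. For both genes the SCI mice were all below the lower control, and both genes lost their calls in both comparisons when control replicate 1 was left out. Rpl39, which lines the exit tunnel, was the lowest of these in absolute level on the CPM scale, with 77.1 and 43.4 CPM in the controls, from 26.8 to 47.3 CPM in SCI + Vehicle and from 20.003 to 41.9 CPM in SCI + Atorvastatin. The highest SCI + Vehicle mouse was above the lower control, all the SCI + Atorvastatin mice were below it, and the log2 fold changes were -0.84 ± 0.26 (SE, edgeR adjusted p = 0.033) and -1.01 ± 0.29 (SE, edgeR adjusted p = 0.018). Without control replicate 1 they were -0.37 and -0.53, and neither was called.

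Rpl38, known for its part in the translation of Hox mRNAs in the mouse embryo, had 122 and 96.3 CPM in the controls, from 51.3 to 97.5 CPM in SCI + Vehicle and from 46.3 to 75.4 CPM in SCI + Atorvastatin. Its log2 fold changes were -0.71 ± 0.23 and -0.84 ± 0.17 (SE, edgeR adjusted p = 0.037 and 0.0029), and the SCI + Vehicle call was lost without control replicate 1 (log2 -0.53). Rpl41, the shortest of the ribosomal proteins, had 293 and 186 CPM in the controls, from 125 to 192 CPM in SCI + Vehicle and from 113 to 162 CPM in SCI + Atorvastatin, with log2 fold changes of -0.74 and -0.77. It too lost its SCI + Vehicle call without control replicate 1 (log2 -0.38). In both genes all the SCI + Atorvastatin mice were below both controls, and the highest SCI + Vehicle mouse was above the lower control. Rpl31, near the exit of the tunnel in the large subunit, was at 164 and 129 CPM in the controls, at 72.7 to 112 CPM in SCI + Vehicle and at 98.2 to 123 CPM in SCI + Atorvastatin, and its log2 fold changes were -0.63 and -0.45. Without control replicate 1 they were -0.45 and -0.27 and neither was called. The other 60S genes called lower in both comparisons were Rpl11, Rpl15 and Rpl29, with log2 fold changes from -0.55 to -0.38, and Rpl15 lost both calls without control replicate 2. Rpl27 was called in SCI + Vehicle alone and Rpl9 in SCI + Atorvastatin alone. Whether these genes differ between the treatments is answered by their direct comparison, in which neither was called (log2 0.16 and -0.06).

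The 3 P-stalk genes had log2 fold changes above 0 with both controls. Rplp0, the base of the stalk, had 303 and 232 CPM in the controls, from 273 to 368 CPM in SCI + Vehicle and from 253 to 410 CPM in SCI + Atorvastatin. Rplp1 had 394 and 203 CPM in the controls, from 298 to 427 CPM in SCI + Vehicle and from 261 to 438 CPM in SCI + Atorvastatin. Rplp2 had 312 and 187 CPM in the controls, from 261 to 324 CPM in SCI + Vehicle and from 260 to 350 CPM in SCI + Atorvastatin. In all 3 genes one control lay below every SCI mouse and the other inside their range. None was called on counts, with log2 fold changes of 0.19 to 0.26 in SCI + Vehicle and 0.26 to 0.37 in SCI + Atorvastatin. On TPM, limma called all 3 higher in both comparisons, with log2 differences of 0.46 to 0.74 and of 0.50 to 0.76. The median of all genes also differed between the scales, by the values given above. The calls changed with the control as well as with the scale. On counts without control replicate 1, Rplp1 and Rplp2 were called higher in SCI + Vehicle (log2 0.80 and 0.61), and Rplp0, Rplp1 and Rplp2 in SCI + Atorvastatin (log2 0.58, 0.84 and 0.68). Without control replicate 2 none was called, and Rplp1 and Rplp2 had log2 fold changes below 0 in both comparisons (-0.15 and -0.13, -0.12 and -0.07).

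Among the 31 40S genes, 4 were called lower (12.9%, against 9.55% of all genes) and 1 higher in SCI + Vehicle, and 6 lower (19.4%, against 14% of all genes) and 1 higher in SCI + Atorvastatin. The shares called lower were not far above those of all genes. The share called higher was 3.23% in each comparison, below the 19.8% and 24.9% of all genes. These higher calls also depended on the controls used. Rps2, Rps27a and Rps28 were called higher in both comparisons without control replicate 1. Rps9, near the entry of the mRNA channel, was called lower in both comparisons, with log2 fold changes of -0.34 and -0.38, and lost both calls without control replicate 1. It had 268.8 and 243 CPM in the controls, from 183 to 223 CPM in SCI + Vehicle and from 167 to 216 CPM in SCI + Atorvastatin, and no SCI mouse reached the lower control. Rpsa, also known as a laminin receptor precursor, had 1074 and 781 CPM in the controls, from 599 to 798 CPM in SCI + Vehicle and from 546 to 813 CPM in SCI + Atorvastatin. It was called in SCI + Vehicle (log2 -0.45 ± 0.14, SE, edgeR adjusted p = 0.036), a call lost without control replicate 1 (log2 -0.20), and missed the threshold in SCI + Atorvastatin (log2 -0.42 ± 0.16, SE, edgeR adjusted p = 0.065). Rps21, Rps24 and Rps26 were called lower in SCI + Atorvastatin alone, at log2 fold changes of -0.46, -0.43 and -0.41, and had -0.40, -0.42 and -0.41 in SCI + Vehicle. Without control replicate 1, Rps24 kept its call and the other two lost theirs.

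Rps6, the protein phosphorylated by the S6 kinases downstream of mTORC1, was not called. It had 343.5 and 353.7 CPM in the controls, from 261 to 350.5 CPM in SCI + Vehicle and from 243 to 329 CPM in SCI + Atorvastatin (log2 -0.30 and -0.27, edgeR adjusted p = 0.083 and 0.086). Rps27a, made as a fusion with ubiquitin, showed how far the controls decided a value: they had 227 and 91.9 CPM, and the SCI mice ran from 124 to 199 CPM between them. Its log2 fold change was -0.01 in SCI + Vehicle with both controls and 0.79 when control replicate 1 was left out. Rps19bp1 had 24.9 and 30.5 CPM in the controls and 16.8 to 27.0 CPM in the SCI mice, and was not called.

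Because the members of a mouse moved together, each gene was also set against the median core ribosomal protein gene of its own mouse, an alternative added after seeing the data. Before this centring, 15 members in all 14 SCI mice lay below both controls and 1 lay above, against 9.89% and 22.8% of all genes. After it, 13 lay below and 8 above, against 4.85% and 24.2% of all genes under the same centring. Those below included Rpl11, Rpl24, Rpl31, Rpl35a, Rpl37, Rpl38, Rpl39, Rpl41, Rpl8, Rpl9, Rps4l and Rpsa. Those above were Rpl17, Rpl36a, Rpl37a, Rpl5, Rplp0, Rplp2, Rps18 and Rps4x. Rpl5 and Rpl11, which bind the 5S ribosomal RNA together and can hold back Mdm2, were on opposite sides of the controls. On this scale Rpl35a lay 0.68 (log2) below the controls' mean, Rpl37 0.49 below, Rpl5 0.40 above, Rps18 0.44 above and Rplp0 0.50 above, as means over the SCI mice. Centring on the members' own median places members on both sides of it by construction, and the 8 above were a smaller share of the members than the 24.2% of all genes, so that no direction of the members as a group is read from these counts.

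**Figure D3:**
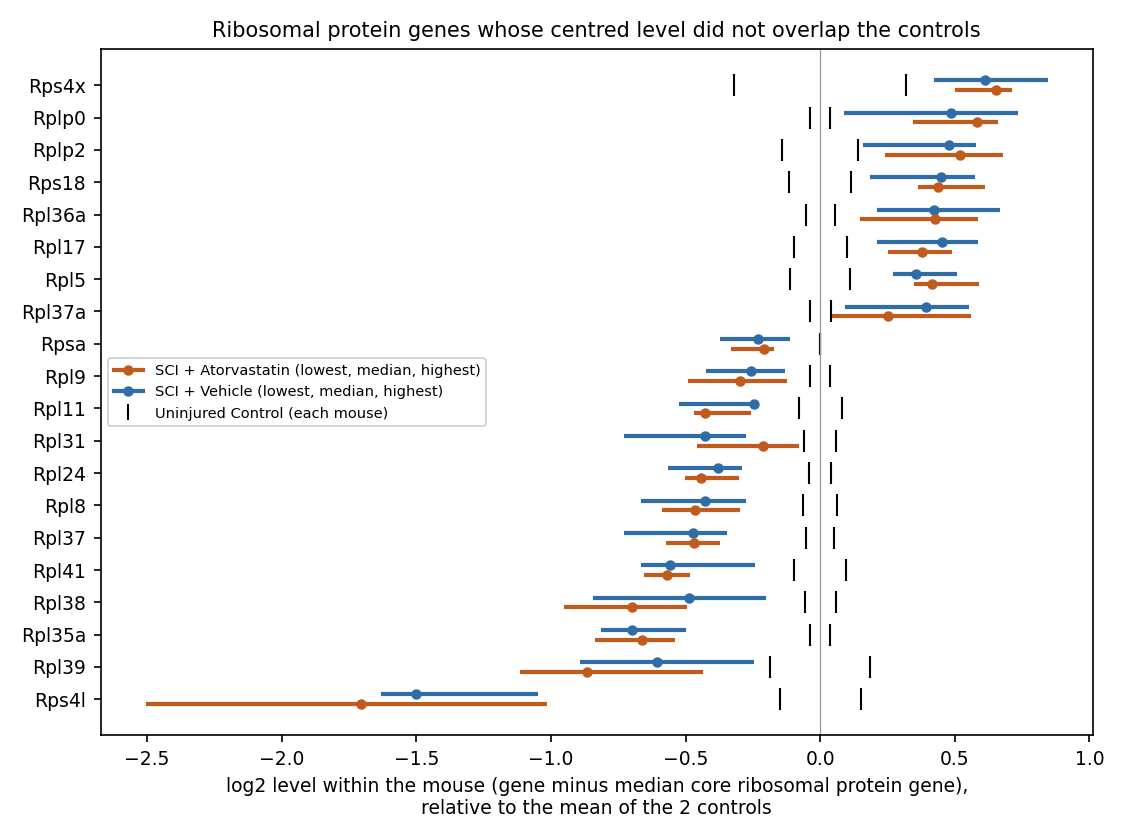
Ribosomal protein genes whose centred level in the 14 SCI mice did not overlap the 2 controls. The x axis is the log2 level of a gene minus the median core ribosomal protein gene of the same mouse, relative to the mean of the controls; lines give the lowest, median and highest of the 7 mice per SCI group and ticks give each control. The 8 genes at the top, from Rps4x to Rpl37a, lie above both controls, those from Rpsa to Rps4l below both, and the lines of the 2 SCI groups overlap in every gene.

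Rps4l, with the lowest log2 fold change of all members tested in both comparisons with the controls, forms a pair with Rps4x. Rps4x (chrX:102184941-102189394, minus strand) is the X-linked gene of the small subunit protein eS4. Rps4l (chr6:148354656-148355598, plus strand) is a processed copy of it on an autosome. Over the 789 bases of the Rps4x coding sequence the copy differed at 161 bases (79.6% identity), and of the first 180 bases 38 differed. This stretch is shown because reads can be told apart only where the copies differ; capitals in the Rps4l line mark those bases, and Rps4l is numbered on its GENCODE transcript.
Rps4x, coding bases 1 to 180: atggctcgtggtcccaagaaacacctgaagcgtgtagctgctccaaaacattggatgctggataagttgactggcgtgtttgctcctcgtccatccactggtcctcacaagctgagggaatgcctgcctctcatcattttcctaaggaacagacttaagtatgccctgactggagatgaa
Rps4l, transcript bases 55 to 234: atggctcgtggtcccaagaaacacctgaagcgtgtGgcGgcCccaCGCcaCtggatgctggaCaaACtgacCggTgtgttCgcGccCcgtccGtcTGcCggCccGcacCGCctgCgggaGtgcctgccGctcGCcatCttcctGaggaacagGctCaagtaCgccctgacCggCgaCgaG

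Rps4l had 68.3 and 61.2 CPM in the controls. It ran from 18.1 to 25.8 CPM (median 22.8) in SCI + Vehicle and from 8.17 to 31.2 CPM (median 19.3) in SCI + Atorvastatin. No SCI mouse reached the lower control, and edgeR gave log2 fold changes of -1.61 ± 0.19 (SE, adjusted p = 2.0e-04) and -1.80 ± 0.35 (SE, adjusted p = 0.0025). Rps4x lay on the other side, with 114 and 129 CPM in the controls, from 149 to 187 CPM in SCI + Vehicle and from 136 to 195 CPM in SCI + Atorvastatin. All the SCI mice were above both controls, and edgeR gave log2 fold changes of 0.42 ± 0.11 (SE, adjusted p = 0.020) and 0.48 ± 0.15 (SE, adjusted p = 0.026). The Rps4x calls were lost without control replicate 1 and the Rps4l calls were kept.

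The sum of both genes did not follow either of them. It was 182 and 190 CPM in the controls, from 167 to 205 CPM (median 184) in SCI + Vehicle and from 144 to 225 CPM (median 181) in SCI + Atorvastatin, and its group mean was 0.99 and 1.00 of the control mean. On TPM, which corrects for length, Rps4l made up 29.3% and 34.0% of the pair in the controls, 11.6% ± 2.4 (SD, n = 7) in SCI + Vehicle and 9.41% ± 2.64 (SD, n = 7) in SCI + Atorvastatin. No SCI mouse was above 15.4%. An exact two-sided permutation test over mice gave p = 0.028 for each SCI group, the smallest that 7 against 2 mice allow, and 0.097 after Benjamini-Hochberg adjustment over the 21 tests of paralog shares, so the share missed the adjusted threshold while the count test of Rps4l passed it. Between the treatments the exact permutation p for the share was 0.14. Whether reads of one copy were assigned to the other in either file was not tested. Of the 50-base stretches of the Rps4x transcript, 72.2% are also found in transcripts of other genes, most often Gm9616 (46.7%). The 72.2% covers all other genes and does not measure what Rps4x shares with Rps4l.

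**Figure D4:**
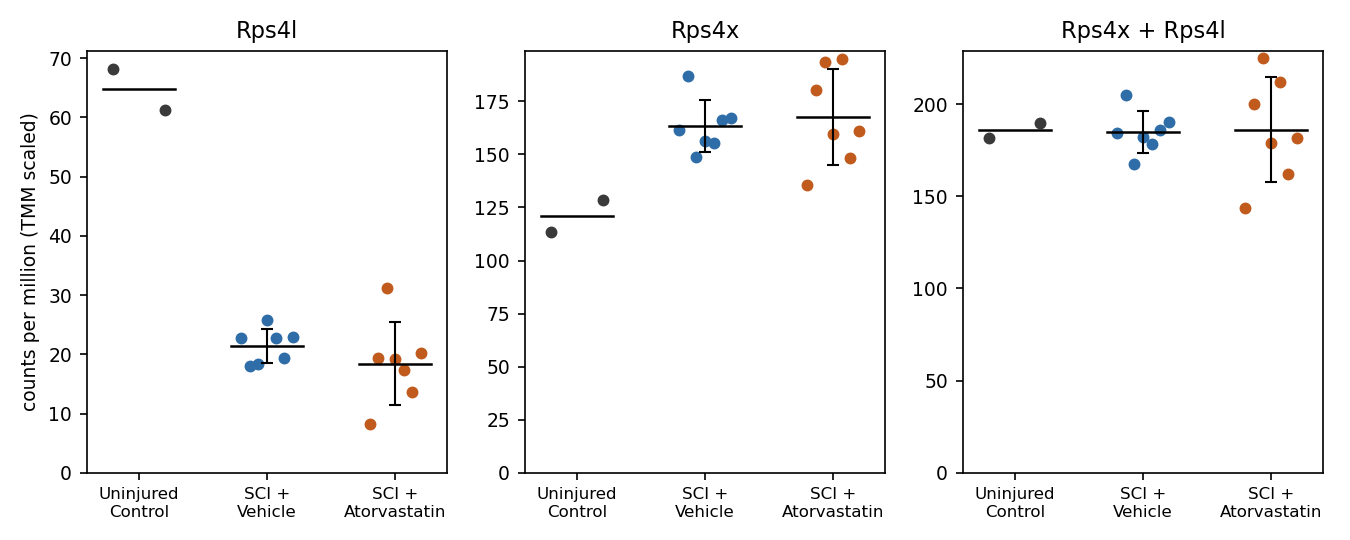
Rps4l, Rps4x and their sum in each mouse by group (x axis), in TMM-scaled CPM (y axes starting at 0); horizontal lines are group means and error bars are the SD of 7 mice. Rps4l of every SCI mouse is below both controls, Rps4x is above both, and the sum of the controls lies within the range of each SCI group.

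Of the other pairs, Rpl36al, an autosomal copy of the X-linked Rpl36a with 87.7% identity over 318 coding bases, made up 54.1% to 59.2% of the pair's TPM in the controls. It made up 49.9% ± 3.9 in SCI + Vehicle and 49.7% ± 3.2 in SCI + Atorvastatin (SD, n = 7 each), with exact permutation p of 0.056 and 0.028, and 0.15 and 0.097 after adjustment. On counts the gap was wider, at 53.2% to 55.2% in the controls and 44.2% ± 4.0 and 44.2% ± 2.1 in the SCI groups (exact permutation p = 0.028 for each, 0.12 after adjustment). Neither scale passed the adjusted threshold. Rpl36al was not called alone, with log2 fold changes of -0.35 and -0.36. Rpl7l1, a paralog of Rpl7 that works in ribosome assembly, had 52.7 and 52.1 CPM in the controls, from 30.2 to 44.5 CPM in SCI + Vehicle and from 30.9 to 46.0 CPM in SCI + Atorvastatin. It was called lower in both comparisons (log2 -0.51 and -0.46, edgeR adjusted p = 0.043 and 0.047), and both calls were lost with either control left out, at log2 -0.52 to -0.45. Rpl7 itself had log2 fold changes of -0.004 and 0.09. Rpl22 and Rpl22l1 were not called, with log2 fold changes of -0.28 and -0.30 in SCI + Vehicle and -0.29 and -0.33 in SCI + Atorvastatin. Rpl10, the partner of the unexpressed Rpl10l, had 0.18 and 0.32 and was not called.

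Rpl3l, a form of Rpl3 known from heart and skeletal muscle, was at 0 counts in both controls. It had 8 to 56 counts in the SCI + Vehicle mice, and 0, 0, 0, 1, 7, 11 and 171 counts in the SCI + Atorvastatin mice. Against a floor of 3 counts per control library its mean CPM was at least 8.57-fold higher in SCI + Vehicle and at least 8.66-fold higher in SCI + Atorvastatin, and the latter came from a single mouse, replicate 2. It was called in SCI + Vehicle (edgeR adjusted p = 0.0087) and not in SCI + Atorvastatin (edgeR adjusted p = 0.19). Rpl3 had 491 to 589 CPM in SCI + Vehicle, so the paralog was a trace beside it. Whether RNA of muscle near the cord entered these pieces was not tested.

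A few members could be read in one file and not in the other. Rpl26 and Rps27rt had TPM but 0 counts in all 16 mice. Rpl26 ran from 412 to 1435 TPM over all mice, was at 660 and 1256 TPM in the controls, and was not called by limma in any comparison (log2 -0.44, -0.23 and 0.22). Rpl30 had 0 to 19 counts with 41.2 to 178 TPM in the SCI mice, and 0 counts in both controls with 0 and 402 TPM. Rpl34 had 0 to 43 counts with 109 to 865 TPM over all mice. Rps15a had a mean of only 40.5 TPM in SCI + Vehicle with 1256 to 2543 counts. Its coding transcripts have a median length of 638.5 bases and the longest has 5179, and TPM depends on the length taken. Counts per TPM and kilobase of the median coding transcript had a median of 6.55 over 78 members and ran from 1.05 to 80.4. This ratio depends on the transcript length taken, so its spread alone does not show that the files divided the reads differently. By sequence, a median of 40.2% of the 50-base stretches of a member's longest coding transcript also occurs in transcripts of other genes, over 86 members, and it is over 50% in 30 of them and 0 in a few, Rpl39l, Rpl3l and Rps19bp1 among them.

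Rps27 (chr3:90212522-90213651, minus strand) and its retrocopy Rps27rt (chr9:114982366-114982739, minus strand) are the extreme case. Their coding sequences of 252 bases are identical, so that within them no read can be assigned to either gene. The shared sequence is printed once to show the zinc-finger protein eS27 that both encode.
Rps27 and Rps27rt, coding bases 1 to 252: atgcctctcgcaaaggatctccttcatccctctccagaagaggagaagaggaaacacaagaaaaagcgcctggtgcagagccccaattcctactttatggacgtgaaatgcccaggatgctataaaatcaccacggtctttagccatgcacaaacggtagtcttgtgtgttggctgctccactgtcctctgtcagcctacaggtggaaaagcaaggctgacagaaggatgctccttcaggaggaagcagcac
In SCI + Atorvastatin replicates 1 and 2, Rps27 had 573 and 655 TPM and Rps27rt was listed at 0. In the other 14 mice the order was turned round, with 0 to 18.6 TPM for Rps27 and 314 to 773 TPM for Rps27rt. Taken alone, Rps27rt was called higher by limma in SCI + Vehicle (log2 0.81, adjusted p = 0.0063) and had -1.92 (adjusted p = 0.61) in SCI + Atorvastatin. The sum removed this switch: it was 365 and 314 TPM in the controls, from 512 to 792 TPM (median 596) in SCI + Vehicle and from 459 to 655 TPM (median 573) in SCI + Atorvastatin. All SCI mice were above both controls, by 1.81-fold and 1.67-fold on the group means of TPM. This sum was formed after its values were seen and was not tested, and on TPM the median of all genes was also above 0 against the controls. Rps27l, another relative that p53 can induce, had 9 and 173 counts in the controls and 54 to 231 counts in the SCI mice. With both controls it was not called. It was called higher in both comparisons without control replicate 2, the one with 173 counts.

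**Figure D5:**
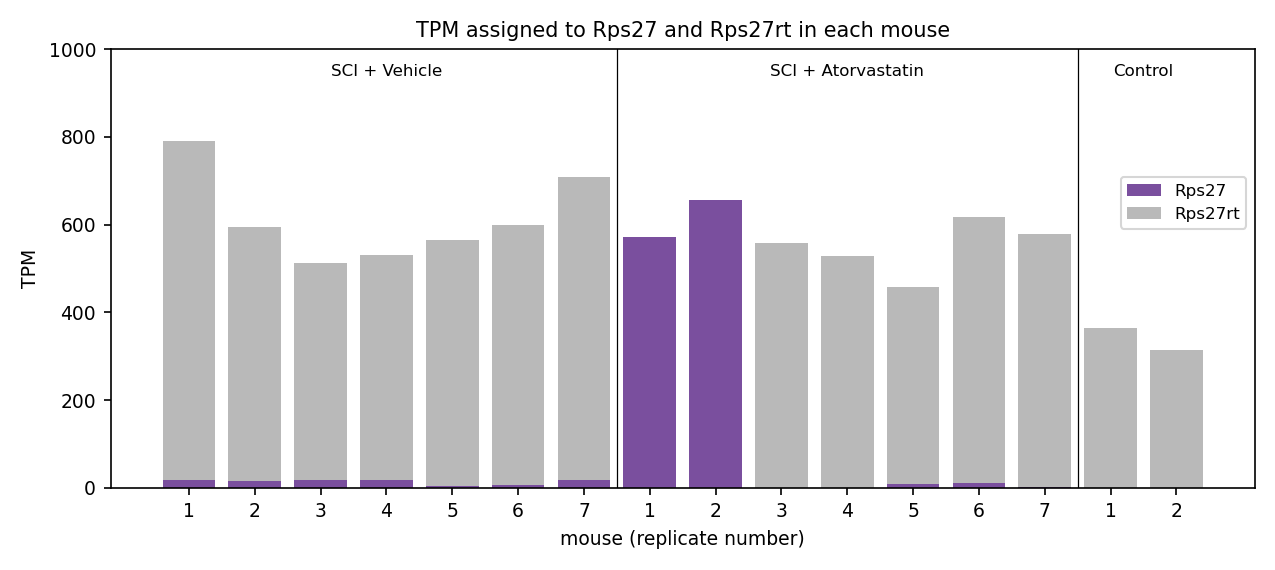
TPM assigned to Rps27 (purple) and Rps27rt (grey), stacked, in each mouse by replicate number (x axis); the y axis starts at 0. Purple fills the bars of SCI + Atorvastatin replicates 1 and 2 alone, and the full bars of all SCI mice, from 459 to 792 TPM, are above those of the controls, at 365 and 314 TPM.

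SCI + Atorvastatin vs. SCI + Vehicle asks whether the delayed statin changed these genes in the injured cord. A gene was called here at an unadjusted p below 0.001 with the same limit on the fold change, which 0.087% of all genes passed as higher and 0.0186% as lower. With edgeR, 0 of the 84 members were called in either direction, 0 had an unadjusted p under 0.05, and DESeq2 and limma also called 0. The median log2 fold change was 0.01, and the 73 core genes ran from -0.19 (Rpl39) to 0.21 (Rps12). Their standard errors had a median of 0.10 and ran from 0.07 to 0.16, so an interval of 2 SE reached a median of 0.19 to each side. This design could therefore not separate small differences from the spread between mice. The smallest p was that of Rps12, a small subunit protein, which ran from 89.0 to 156 CPM (median 121) in SCI + Atorvastatin and from 93.0 to 116 CPM (median 108) in SCI + Vehicle (log2 0.21 ± 0.10, SE, unadjusted p = 0.061, edgeR adjusted p = 0.72). Rpl31 followed among the well-counted genes with log2 0.16 ± 0.10 (SE, edgeR adjusted p = 0.76), and the ranges of both groups overlapped in both genes. Rps4l had log2 -0.22 ± 0.20 and Rps4x 0.04 ± 0.08 (SE, edgeR adjusted p = 0.86 and 0.96).

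The genes around the ribosome were read from lists with the same calls. Fau and Gnb2l1, ribosomal proteins with other names, were not called (log2 -0.25 and 0.33 in SCI + Vehicle, -0.19 and 0.49 in SCI + Atorvastatin). Of 15 TOP mRNAs outside the ribosome, 3 were called higher and 2 lower in SCI + Vehicle, and 4 and 2 in SCI + Atorvastatin. These were 20% and 13.3%, and 26.7% and 13.3%, close to the 19.8% and 9.55%, and 24.9% and 14%, of all genes. Eef1a1, which brings aminoacyl-tRNA to the ribosome, was at 1031 and 915 CPM in the controls and from 1280 to 1746 CPM in the SCI mice (log2 0.53 and 0.66), and Pabpc1, the poly(A) binding protein, rose by a similar size (log2 0.54 and 0.60). Eif3h, a subunit of an initiation factor, fell by 0.68 and 0.72 (log2), and Eef1g by 0.42 and 0.43.

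Of 32 genes of ribosome biogenesis, 5 were called higher and 3 lower in SCI + Vehicle, and 7 and 3 in SCI + Atorvastatin. The shares were 15.6% and 9.38%, and 21.9% and 9.38%, each below that of all genes given above. Polr1a, the large subunit of RNA polymerase I, had 24.8 and 38.8 CPM in the controls and 56.2 to 81.9 CPM in the SCI mice (log2 1.07 and 1.14). The kinases of late 40S assembly went apart, Riok1 at log2 1.38 and 1.39 and Riok2 at -1.14 and -1.10, and Ebna1bp2, a 60S assembly factor, had -0.90 and -1.03. Of 16 mTORC1 and TOP regulators, 2 were called higher and 3 lower in SCI + Vehicle, and 1 and 3 in SCI + Atorvastatin, which is 12.5% and 18.8%, and 6.25% and 18.8%, beside the same shares of all genes. The lower ones were the cap-binding protein Eif4e (log2 -0.96 and -0.84), Rptor, which defines mTORC1 (-0.60 and -0.61), and Rheb, its activator (-0.49 and -0.63). The higher ones were Larp4 in both comparisons (log2 0.96 and 1.12) and Rps6kb1 in SCI + Vehicle alone (0.77). Eif4e had 77.0 and 158 CPM in the controls, and the highest mouse of each SCI group, at 77.2 and 80.3 CPM, passed the lower control. Larp4 had 14.8 and 40.7 CPM in the controls, and the lowest SCI + Vehicle mouse, at 39.9 CPM, was below the higher control. Of the 10 Rps6k kinases left out of the members, 2 were called higher in SCI + Vehicle, Rps6ka1 (log2 0.83) and Rps6kb1 (0.77), and 1 was called higher and 2 lower in SCI + Atorvastatin, numbers too small to set against the shares of all genes.

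The 77 mitochondrial ribosomal proteins, which build a separate ribosome, had 14 called lower and 3 higher in SCI + Vehicle and 16 lower and 4 higher in SCI + Atorvastatin, with median log2 fold changes of -0.27 and -0.36. In SCI + Vehicle, 18.2% of them and 21.4% of the cytosolic members were called lower, beside 9.55% of all genes. In SCI + Atorvastatin these shares were 20.8% and 23.8%, beside 14%. The shares called higher were 3.90% and 5.19% for the mitochondrial proteins and 2.38% and 1.19% for the cytosolic members, beside 19.8% and 24.9% of all genes. None of the genes in these lists was called between the treatments. The cell type makeup moved with the same contrasts: 12 microglia and macrophage markers summed to 235 to 322 CPM in the controls and 1965 to 3256 CPM in the SCI mice, and 10 neuron markers to 12401 to 14180 CPM and 6617 to 11660 CPM. The oligodendrocyte markers overlapped, at 14379 to 18904 CPM and 13561 to 19467 CPM. The 8 astrocyte markers summed to 8867 to 9707 CPM and 12832 to 15143 CPM, but the list was split. In each comparison with the controls 4 had log2 fold changes above 0 and 4 below (medians 0.08 and 0.09). In each, 4 were called higher, and 0 and 2 were called lower, so the sum does not stand for the whole list. The 7 fibroblast markers lay higher on average in SCI + Atorvastatin than in SCI + Vehicle, with sums whose ranges overlapped. They summed to 311 to 343.2 CPM in the controls, 196 to 1205 CPM in SCI + Vehicle and 765 to 2032 CPM in SCI + Atorvastatin, and 0 and 5 of them were called higher than the controls (median log2 1.18 and 2.53). Between the treatments all 7 were higher in SCI + Atorvastatin at an unadjusted p under 0.05 (median log2 0.84), and 0 were called (smallest edgeR adjusted p = 0.68). Every one of the neuron, oligodendrocyte and astrocyte markers had counts in at least 1 control, as the label spinal cord implies. The part of these shifts in the values of the ribosomal protein genes was not tested.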

How the data were processed

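Total RNA libraries (SMARTer Stranded Total RNA-Seq Pico) of 16 mice were used, 7 SCI + Vehicle, 7 SCI + Atorvastatin and 2 Uninjured Control, grouped by their labels. Per the submitters' processing notes, reads were checked with FastQC 0.12.1, trimmed with Trimmomatic 0.38 and aligned with STAR 2.5.4b to mm10, with RSEM 1.3.1 for quantification. The authors deposited raw counts and TPM per gene symbol; how the whole-number counts relate to the RSEM values is not given in the sources used here. All columns were mapped to a mouse (0 columns unused).

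Ribosomal protein genes, lists and named genes were chosen with earlier results of these data known. Counts of all genes with a mean above 1 TPM in at least 1 condition (16091) were fitted with edgeR 4.0.16 in R 4.3.3. The fit used TMM, the quasi-likelihood test and Benjamini-Hochberg adjustment, separately for each pair of groups. The CPM shown were scaled by TMM over all 16 libraries. The SE of an edgeR fold change was derived from the fold change and its p-value. DESeq2 1.42.0 and limma 3.58.1 on log2(TPM + 1) were alternatives, and limma tested genes without counts; fold changes on that scale understate those of low genes. The steps were tested on simulated data. Named genes were the 5 smallest p-values per direction and comparison, the 5 highest and lowest in TPM, paralog pairs, genes without counts, the P-stalk, Rpsa, Rps6, Rps27a, Rps19bp1 and the 3 smallest p-values between treatments; other names stand for short or complete counts. Paralog shares used exact two-sided permutation tests over mice (scipy 1.17.1). Replicate numbers did not pair the mice. Depth was 14823292 to 25579826 counts per mouse, and a count of 0 allows up to 3 counts; such floors cover counting error only. Some members are not reported by name here.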

Additional observations from a re-analysis of the deposited data

Results flagged for a closer look

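Of 79 groups of 7 mice examined, 6 held a mouse far from the other 6 by Dixon's criterion, and chance marks about 1 in 20 groups. In SCI + Atorvastatin, Rpl36a was at 95.4 CPM in replicate 5 and from 70.1 to 79.3 CPM in the others. Rpl3l was at 7.75 CPM in replicate 2 and from 0 to 0.45 CPM in the others, and it is the mouse behind the mean of its group. Rps27 was at 0.41 CPM in replicate 1, one of the pair of mice whose TPM was assigned to Rps27 in place of Rps27rt, and at most 0.08 CPM in the others. In SCI + Vehicle, Rpl41 was at 191.62 CPM in replicate 1 and from 125 to 153 CPM in the others, which puts that mouse just above the lower control. Rps6 was at 350.54 CPM in replicate 7 and from 261 to 293 CPM in the others, at the level of the controls. Rpl39l was at 1.59 TPM in replicate 7 and listed at 0 in the others. Causes were not tested.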

How the results depend on the processing

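With both controls, DESeq2 called 24 members lower and 2 higher in SCI + Vehicle and 23 and 1 in SCI + Atorvastatin. The share of all genes that DESeq2 called is not given here, so these counts are not read as an excess of members. In SCI + Vehicle, 1 was called higher when all 3 groups shared 1 fit, when each condition had to pass 1 TPM, or when each mouse needed 10 counts. With limma on log2(TPM + 1), on log2(TPM + 0.1) and after rescaling without the 10 genes of highest TPM, SCI + Vehicle had 11 higher and 9 lower each time (medians -0.035, -0.035 and -0.033), and SCI + Atorvastatin 11 higher and 10, 10 and 8 lower (medians -0.0042, -0.0042 and 0.0036). With the same 10 genes left out, the share of TPM became 7.84% (SCI + Atorvastatin), 7.72% (SCI + Vehicle) and 8.06% (controls). Leaving out 1 mouse at a time gave 2 to 9 higher, 5 to 39 lower and a median of -0.46 to -0.0054 in SCI + Vehicle, and 1 to 15 higher, 8 to 40 lower and a median of -0.44 to 0.049 in SCI + Atorvastatin; with an SCI mouse left out, 12 to 21 and 15 to 20 were lower. Between treatments 0 were called each time (median -0.03 to 0.05). Rps27a changed sign with the control left out, at 0.79 without replicate 1 and -0.52 without replicate 2 in SCI + Vehicle and at 0.81 and -0.50 in SCI + Atorvastatin, and Rpl37rt at 1.80 and -0.98 in SCI + Atorvastatin. With the replicate number as a block, 0 members were called in either comparison with the controls, with counts and for the genes without counts; the numbers did not pair the mice (correlations of same-numbered SCI mice from -0.15 to 0.09, 0 of 7 closest to their own number), so the block costs degrees of freedom with 2 controls. Of 2364 values of named genes under alternatives, 2197 kept their side of the threshold, 105 lost a call and 59 gained one. The other 3 changed sign with a call in at least 1 of the fits compared. A change of sign in a gene called in neither fit counts among the 2197. The 2197 also hold all 906 fold changes between the treatments, where no fit called a named gene. The cause of these changes was not tested. No alternative varied the depth.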
